A study of Mus musculus with 12 samples.

Results

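The Hox cluster genes were the 39 genes of the deposited tables whose symbol is Hoxa, Hoxb, Hoxc or Hoxd followed by a number, out of 57180 genes in all. They lie in 4 clusters of GRCm39, with 11 genes in Hoxa (chromosome 6, minus strand), 10 in Hoxb (chr11:96085106-96259082, plus strand), 9 in Hoxc (chr15:102829538-102945278, plus strand) and 9 in Hoxd (chr2:74498654-74595486, plus strand). RNA was sequenced from 12 libraries of the mouse embryonic stem cell (ESC) line E14-DOX-CRISPRi, whose CRISPR interference repressor is induced by doxycycline (DOX) and directed by guide RNAs to start sites. Both lines carry that repressor, a TetON transactivator driven by the CAG promoter and the resistance cassettes that were kept under selection. Guide RNAs with scramble sequences are carried by the Neg line, and those of the 3xKD line target Pcx (pyruvate carboxylase) and the malic enzymes Me1 and Me2. Each line was sampled as ESCs in N2B27 with 2iLif and as epiblast-like cells on day 2 of induction (EpiLCs) in FAX medium, with 3 libraries in each of the 4 groups. Each line is 1 engineered line, so a difference between 3xKD and Neg compares those 2 lines, and p-values measure the spread between the 3 libraries of a group. The study's methods describe its experiments in general as done with biological replicates, and the labels do not say what separates the libraries of a group. The libraries were grouped by their titles, which give both states for both lines, whereas their cell-type entry gives 1 state per line. That DOX was used comes from the study's description, since the labels do not mention it.

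Hox genes encode homeodomain transcription factors that give cells their position along the head-to-tail axis. Within a cluster the genes are ordered by paralog group, from group 1, used earliest and farthest forward in the embryo, to group 13, used last and farthest back. In pluripotent cells the clusters are a classic target of Polycomb repression, with Trithorax (MLL) complexes, retinoic acid, Wnt signalling and Cdx factors as known activators when the body axis is laid down. The Hox proteins bind DNA together with TALE cofactors of the Pbx, Meis and Pknox families.

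Many Polycomb targets have start regions rich in the dinucleotide CpG. The upstream bases of 5 members are shown whose levels are described below, and not all of these 5 are rich in CpG. They are the bases before the RefSeq start (table on GRCm38.p6), placed by exact match on GRCm39 and free of annotated exons, written 5′ to 3′ on the strand of the gene with each CpG in capitals. Hoxa5 (chr6:52181568-52181817, minus strand) and Hoxb1 (chr11:96256334-96256577, plus strand) had higher levels in EpiLCs and lower levels with 3xKD there. Hoxa2 (chr6:52141812-52142061, minus strand) had lower levels with 3xKD in EpiLCs. Hoxd13 (chr2:74498319-74498568, plus strand) and Hoxd4 (chr2:74552072-74552321, plus strand) had lower levels in EpiLCs than in ESCs.
Hoxa5: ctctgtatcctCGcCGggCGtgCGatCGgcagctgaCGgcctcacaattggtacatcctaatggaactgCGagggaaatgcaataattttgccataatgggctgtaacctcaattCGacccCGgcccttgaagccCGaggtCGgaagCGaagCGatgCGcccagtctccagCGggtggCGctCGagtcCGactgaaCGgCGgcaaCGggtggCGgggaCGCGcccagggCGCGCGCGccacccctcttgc
Hoxb1: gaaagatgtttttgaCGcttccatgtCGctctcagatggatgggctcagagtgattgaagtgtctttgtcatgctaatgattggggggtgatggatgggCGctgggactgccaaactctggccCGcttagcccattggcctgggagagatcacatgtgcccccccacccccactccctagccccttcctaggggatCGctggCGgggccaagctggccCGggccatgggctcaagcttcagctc
Hoxa2: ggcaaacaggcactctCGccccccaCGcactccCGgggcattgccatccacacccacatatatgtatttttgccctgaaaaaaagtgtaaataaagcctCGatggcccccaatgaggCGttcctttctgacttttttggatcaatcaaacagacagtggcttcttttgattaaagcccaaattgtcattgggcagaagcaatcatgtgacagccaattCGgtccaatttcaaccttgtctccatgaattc
Hoxd13: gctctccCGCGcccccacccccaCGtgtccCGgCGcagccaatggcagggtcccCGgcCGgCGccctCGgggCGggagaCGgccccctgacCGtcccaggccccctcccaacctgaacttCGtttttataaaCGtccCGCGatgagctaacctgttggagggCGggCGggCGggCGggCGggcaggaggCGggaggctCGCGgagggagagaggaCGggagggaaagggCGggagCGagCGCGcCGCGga
Hoxd4: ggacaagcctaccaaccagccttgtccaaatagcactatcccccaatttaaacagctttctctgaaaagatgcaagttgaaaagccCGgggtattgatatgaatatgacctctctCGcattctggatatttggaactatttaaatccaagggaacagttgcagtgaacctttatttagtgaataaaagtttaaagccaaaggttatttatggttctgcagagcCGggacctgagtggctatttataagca

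Within 250 bases before the start, Hoxd13 held 31 CpG, Hoxa5 held 28, Hoxb1 held 7, Hoxa2 held 6 and Hoxd4 held 3, where the median of all starts was 6. Their ratios of observed to expected CpG were 0.90, 1.11, 0.32, 0.47 and 0.29 in the same order. A ratio of 0.6 or more was reached by 13 of the 24 Hox starts (54.2%) and by 33.95% of all starts. Of the 39 members, 22 had an entry in the promoter table, with 24 starts, and the median ratio of observed to expected CpG over these was 0.721, against 0.374 over the 32841 starts of the whole table. The GC content of the Hox starts ranged from 40.4% to 80.0% with a median of 58.6%, and the median of the table was 52.4%. The Hox-Pbx motif TGATNNAT was found on either strand in 4 of the 24 Hox starts (16.7%), those of Hoxa2, Hoxb1, Hoxb8 and one of the pair of Hoxd11, and in 7.69% of all starts. The CCAAT box was found in 14 of 24 (58.3%) and in 33.9% of all starts, the TATAAA box in 4 of 24 (16.7%) and 12.4%, and the octamer ATTTGCAT in 0 of 24 and 1.60%. Matches to different motifs were counted separately also where they overlapped, and a match describes the letters in this window and not a bound site.

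Libraries held 11221023 to 19652197 estimated counts, and all 39 members had at least 10 counts over the 12 libraries and were tested with the 25446 genes that did. Levels are given as CPM (counts scaled to a common library size) after TMM scaling, as mean ± SD over the 3 libraries of a group unless each library is listed in the order of its replicate number. The targeted genes checked the labels. In ESCs Pcx lay at 35.7 to 36.8 CPM in Neg and 16.2 to 16.8 CPM in 3xKD, and in EpiLCs at 46.7 to 57.0 CPM in Neg and 23.6 to 25.6 CPM in 3xKD, and Me1 and Me2 were also below every Neg library in both states. For 22 members at least 1 exon overlaps an exon of another annotated gene, for 19 of them on the opposite strand and for 4 with another member (Hoxc5 with Hoxc10, and Hoxd3 with Hoxd4). The library kit keeps strand, but the strand setting of the quantification is not given in the sources used here, so that the values of overlapping members are uncertain.

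A member was counted as detected at a group mean of 0.5 CPM or more. By that limit 32 of 39 Hox genes were detected in Neg ESCs, 29 in 3xKD ESCs, 23 in Neg EpiLCs and 22 in 3xKD EpiLCs. Over all genes tested, detection was 64.6% in Neg ESCs, 65.6% in 3xKD ESCs, 65.4% in Neg EpiLCs and 67.4% in 3xKD EpiLCs. The difference between ESCs and EpiLCs lay in Hoxc, where 8 of 9 genes were detected in each ESC group and 2 of 9 in each EpiLC group, and in Hoxd, where 9 of 9 were detected in Neg ESCs, 8 in 3xKD ESCs, 5 in Neg EpiLCs and 7 in 3xKD EpiLCs. Hoxa gave 9, 8, 9 and 8 of 11 and Hoxb 6, 5, 7 and 5 of 10 in the same order of groups. At a limit of 0.25 CPM the counts were 33, 34, 27 and 25, and at 1 CPM they were 22, 21, 17 and 14.

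The same 18 genes were detected in all 4 groups, among them Hoxa3, Hoxa5, Hoxa7, Hoxb4, Hoxc13, Hoxd1 and Hoxd13, and 17 in 1 to 3 groups. Detected in both ESC groups and in neither EpiLC group were 8 genes, Hoxb13, Hoxc5, Hoxc6, Hoxc9, Hoxc10, Hoxc11, Hoxc12 and Hoxd10. Hoxa6, Hoxa11, Hoxb6 and Hoxc8 were detected in no group, with 23, 40, 27 and 27 counts over the 12 libraries. No member was at 0 in all libraries, and 12 were at 0 in at least 1, so that absence of RNA was not shown for any of them. The lowest total was that of Hoxa6.

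**Figure D1:**
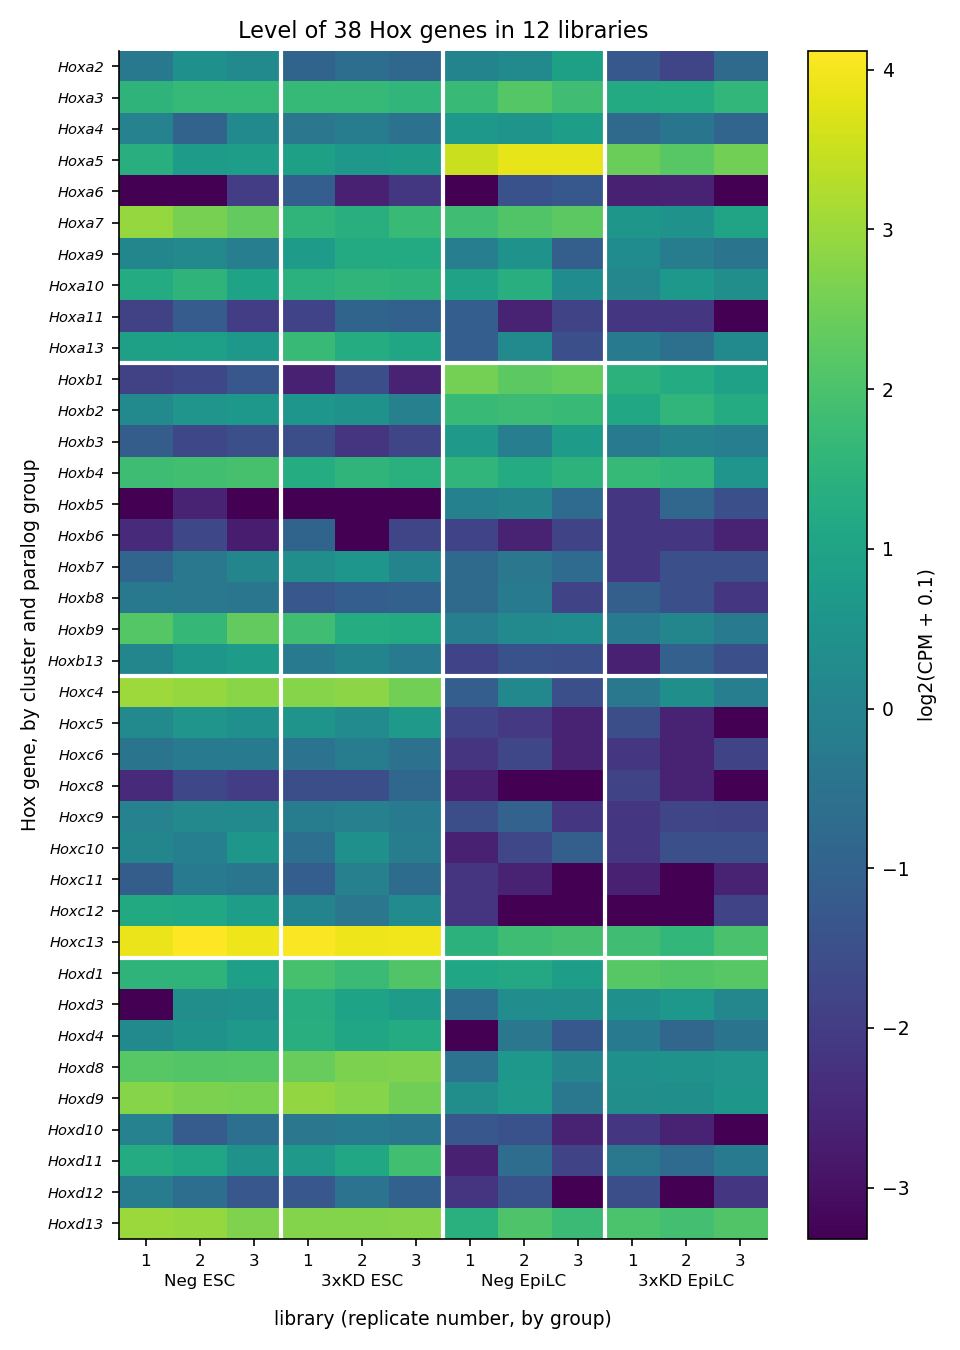
Level of 38 of the Hox genes (rows, by cluster and paralog group) in each of the 12 libraries (columns, by group), as log2(CPM + 0.1). The Hoxc block and the lower rows of the Hoxd block are darker in the 6 EpiLC libraries, and the rows of Hoxa5 and Hoxb1 are brighter there.

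Most members were low, with a median of 1.22 CPM over the 39 in Neg ESCs, against 2.28 CPM over all genes tested. Compared per length, as TPM (transcript abundance scaled by length) summed per gene, Hoxc13 had the highest level of the members in both ESC groups, at 4.53 ± 1.17 TPM in Neg and 4.12 ± 0.252 TPM in 3xKD. Hoxc4 lay at 2.71 ± 0.540 TPM in Neg ESCs and 2.14 ± 0.305 TPM in 3xKD ESCs, below Hoxc13 by more than their spread in both. In EpiLCs Hoxa5 lay at 6.19 ± 1.19 TPM in Neg and 2.10 ± 0.382 TPM in 3xKD, and Hoxb1 at 2.10 ± 0.106 TPM in Neg.

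The cells carried the markers of their labelled states. The summed level of 8 naive ESC markers (Nanog, Esrrb, Tfcp2l1 and others) lay at 5099 to 5258 CPM in Neg ESCs, 3986 to 4062 CPM in 3xKD ESCs, 308 to 322 CPM in Neg EpiLCs and 454 to 469 CPM in 3xKD EpiLCs. The 6 formative markers found of 7 listed (Dnmt3a, Dnmt3b, Fgf5, Otx2, Pou3f1 and Sall2) lay at 248 to 260 CPM, 288 to 296 CPM, 2862 to 3220 CPM and 1667 to 1718 CPM in the same order. The Hox values below move together with these markers, whose part in them was not tested, and in bulk RNA fewer cells with a transcript and less RNA per cell cannot be told apart.

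The comparison of EpiLCs with ESCs asks how the Hox clusters differ between the naive state and the state that follows it. In Neg cells 5 of the 39 members were higher in EpiLCs, all of them from paralog groups 1 to 5 of Hoxa and Hoxb, and 16 were lower, of which 8 were Hoxc genes and 5 Hoxd genes. A member was called where the adjusted p of edgeR's quasi-likelihood test (Benjamini-Hochberg, over all 25446 genes) was under 0.01 and the absolute log2 fold change above 0.58. Of all genes tested, 9.78% were called higher and 11.0% lower in this comparison, against 12.8% and 41.0% of the members. In 3xKD cells 5 members were higher and 21 lower (12.8% and 53.8%), where 9.42% and 9.32% of all genes were called. The 5 higher members were the same in both lines, all 16 lower members of Neg were among the 21 of 3xKD, and the other 5 were Hoxa7, Hoxa9, Hoxa10, Hoxb7 and Hoxd10. None of these 5 passed the test of the difference of the 3xKD effect between the states, so that they were not shown to differ between the lines.

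Among the members that rose, Hoxb1, which patterns the hindbrain and is a classic early retinoic acid target, went from under the detection limit in ESCs to above it in EpiLCs. It lay at 0.177, 0.206 and 0.306 CPM in Neg ESCs and at 5.85, 4.63 and 4.99 CPM in Neg EpiLCs. In 3xKD it lay at 0.0614, 0.244 and 0.0653 CPM in ESCs and at 2.67, 2.30 and 1.81 CPM in EpiLCs. The EpiLC libraries lay above all ESC libraries in each line, by 4.38 ± 0.32 (SE) on the log2 scale in Neg (adjusted p = 5.2e-09) and by 4.09 ± 0.38 in 3xKD (adjusted p = 1.4e-07).

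Hoxa5, a regulator of lung and skeletal patterning, was higher in EpiLCs in both lines. Its level was 2.48, 1.58 and 1.68 CPM in Neg ESCs and 11.4, 14.4 and 14.2 CPM in Neg EpiLCs. In 3xKD the values were 1.78, 1.46 and 1.57 CPM in ESCs and 5.34, 4.41 and 5.68 CPM in EpiLCs. The gain was 2.83 ± 0.17 on the log2 scale in Neg (adjusted p = 5.3e-10) and 1.68 ± 0.18 in 3xKD (adjusted p = 1e-06), and no EpiLC library overlapped an ESC library of its line.

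Hoxb2 and Hoxb3, which act in the hindbrain with Hoxb1, rose as well. Hoxb2 rose from 1.31 ± 0.22 CPM to 3.26 ± 0.083 CPM in Neg and from 1.18 ± 0.29 CPM to 2.43 ± 0.40 CPM in 3xKD (log2 1.29 ± 0.22 and 1.03 ± 0.23). Hoxb3 rose from 0.272 ± 0.076 CPM to 1.33 ± 0.46 CPM in Neg and from 0.188 ± 0.062 CPM to 0.817 ± 0.075 CPM in 3xKD (log2 2.29 ± 0.41 and 2.08 ± 0.45). The antisense RNA Hoxb3os overlaps both genes and lay at 0.259 to 0.462 CPM as a group mean. With offsets for transcript length, Hoxb3 no longer passed the test in either line (adjusted p = 0.0138 in Neg and 0.244 in 3xKD).

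Hoxb5 had 1 count over the 3 Neg ESC libraries and 36 over the 3 Neg EpiLC libraries, a ratio of 34.8 with a counting interval of 5.87 to 1413. In 3xKD it had 0 counts in ESCs and 13 in EpiLCs, which is at least 4.35-fold higher when 3 counts over the group are taken as the limit of a count of 0. Its 3xKD call was lost with offsets for transcript length, with only the groups compared in the fit, and without any 1 of the 3xKD ESC libraries or 3xKD EpiLC replicate 2. Hoxb4, which lies between Hoxb3 and Hoxb5, did not pass the test in either line, at 3.55 ± 0.21 CPM in Neg ESCs and 2.63 ± 0.32 CPM in Neg EpiLCs.

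The anterior genes Hoxa2, Hoxa3 and Hoxa4 did not pass the limits between the states in either line. In Neg ESCs and Neg EpiLCs Hoxa2 lay at 1.01 ± 0.27 CPM and 1.26 ± 0.45 CPM, Hoxa3 at 2.97 ± 0.19 CPM and 3.66 ± 0.63 CPM, and Hoxa4 at 0.790 ± 0.34 CPM and 1.51 ± 0.18 CPM (adjusted p = 0.0353). With offsets for transcript length Hoxa3 was called higher in Neg EpiLCs (adjusted p = 0.00677).

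The largest losses were in Hoxc. Summed over the 9 genes, Hoxc lay at 29.2, 31.9 and 29.1 CPM in Neg ESCs and at 3.94, 5.44 and 4.55 CPM in Neg EpiLCs, a ratio of 0.154 between the group means. In 3xKD the sum lay at 28.3, 27.9 and 26.9 CPM in ESCs and at 5.03, 4.80 and 5.56 CPM in EpiLCs, a ratio of 0.185. Every Hoxc gene had a fitted log2 fold change below 0 in both lines, and 8 of 9 passed the test in each, with Hoxc8 (27 counts in all) the exception. Over all 25446 genes, 12475 of the log2 fold changes lay below 0 in Neg and 12064 in 3xKD.

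Hoxc13, a regulator of hair and nail keratins, led the cluster in TPM in both ESC groups. It lay at 14.9, 17.3 and 15.3 CPM in Neg ESCs and at 2.65, 3.42 and 3.67 CPM in Neg EpiLCs, a fall of 2.29 ± 0.13 on the log2 scale (adjusted p = 1.6e-10). In 3xKD it lay at 16.7, 15.1 and 15.5 CPM in ESCs and at 3.47, 2.94 and 3.87 CPM in EpiLCs, a log2 fold change of -2.20 ± 0.13 (adjusted p = 2.8e-10). The 2 lines did not separate in either state.

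Hoxc4, which helps pattern the neck and upper chest vertebrae, lay at 8.07, 7.64 and 6.88 CPM in Neg ESCs and at 0.370, 1.01 and 0.253 CPM in Neg EpiLCs. In 3xKD it lay at 6.70, 7.01 and 5.68 CPM and at 0.683, 1.21 and 0.812 CPM. The log2 fold changes were -3.79 ± 0.30 in Neg (adjusted p = 1.3e-08) and -2.83 ± 0.27 in 3xKD (adjusted p = 2e-07), and the EpiLC libraries lay below all ESC libraries.

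Hoxc12 fell from 88 counts over the 3 Neg ESC libraries to 2 over the 3 Neg EpiLC libraries, a ratio of 45.5 with a counting interval of 12.2 to 381, and from 43 to 3 counts in 3xKD, a ratio of 14.3 (4.57 to 71.9). Hoxc11 had 28 counts in each ESC group and 3 and 2 counts in Neg and 3xKD EpiLCs, ratios of 9.65 (2.98 to 49.6) and 13.9 (3.51 to 121). The remaining called genes of the cluster, Hoxc5, Hoxc6, Hoxc9 and Hoxc10, lay between 0.665 and 1.32 CPM in the ESC groups and between 0.104 and 0.259 CPM in the EpiLC groups. Some of these calls changed with the settings. Hoxc6 was not called by DESeq2 in either line, Hoxc11 in Neg was not called by DESeq2 or without Neg EpiLC replicate 3, and Hoxc5 in Neg was lost with offsets for transcript length. Hoxc10 was lost without Neg ESC replicate 3 or Neg EpiLC replicate 1 in Neg, and in 3xKD by DESeq2, with those offsets and without 3xKD ESC replicate 2 or 3 or any 3xKD EpiLC library.

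**Figure D2:**
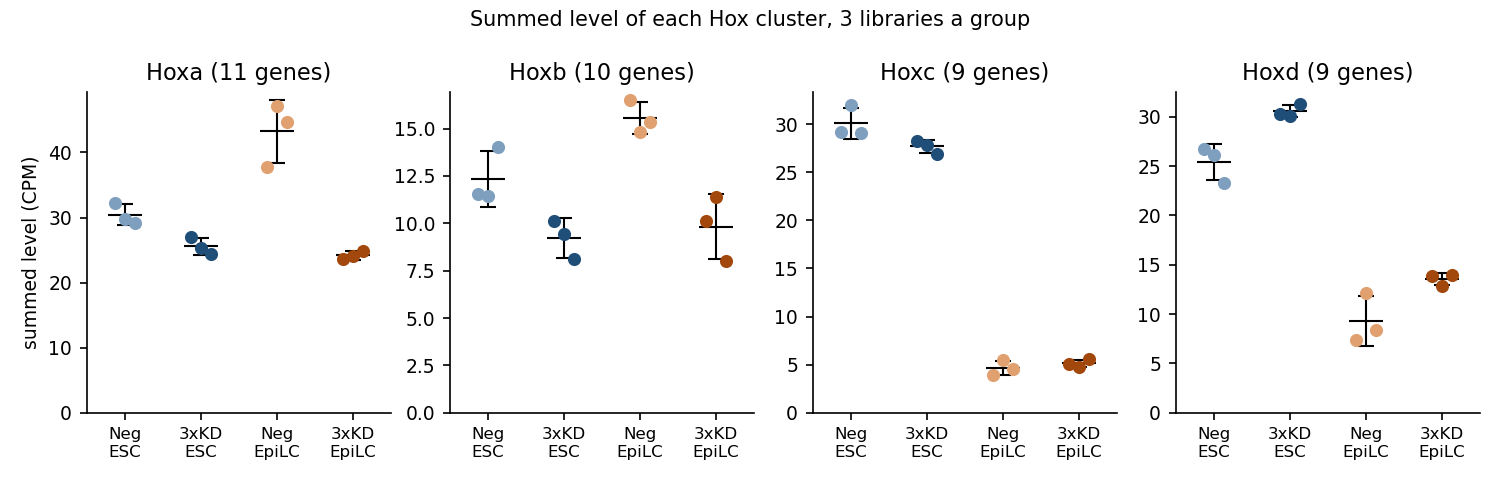
Summed CPM of the genes of each cluster in every library (points), with the mean and SD of each group (bars). Hoxc lies at 26.9 to 31.9 CPM in the 6 ESC libraries and at 3.94 to 5.56 CPM in the 6 EpiLC libraries, and Hoxa is highest in Neg EpiLCs.

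In Hoxd the sum lay at 26.8, 26.2 and 23.3 CPM in Neg ESCs and at 7.39, 12.2 and 8.41 CPM in Neg EpiLCs, a ratio of 0.367 between the group means. In 3xKD it lay at 30.3, 30.1 and 31.3 CPM and at 13.9, 12.9 and 13.9 CPM, a ratio of 0.444. The members that fell in both lines were Hoxd4, Hoxd8, Hoxd9, Hoxd11 and Hoxd13. Hoxd9, a limb and spine patterning gene, lay at 6.65, 6.19 and 6.02 CPM in Neg ESCs and at 1.17, 1.54 and 0.695 CPM in Neg EpiLCs (log2 -2.46 ± 0.22, adjusted p = 5.4e-08), with a log2 fold change of -2.36 ± 0.21 in 3xKD. Those of Hoxd8 were -2.10 ± 0.23 in Neg and -2.18 ± 0.21 in 3xKD. Hoxd11, with 236 counts over all libraries, fell by 2.79 ± 0.51 in Neg (adjusted p = 0.00023), and its 3xKD call was lost with offsets for transcript length and without 3xKD ESC replicate 3 or 3xKD EpiLC replicate 2. Hoxd10, called in 3xKD, had 33 counts over the 3 ESC libraries and 3 over the 3 EpiLC libraries there, a ratio of 10.95 (3.435 to 55.8). Hoxd12 was not called in any comparison, at 0.551 ± 0.246 CPM in Neg ESCs, 0.436 ± 0.156 CPM in 3xKD ESCs, 0.131 ± 0.134 CPM in Neg EpiLCs and 0.124 ± 0.124 CPM in 3xKD EpiLCs.

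Hoxd13, which shapes the digits and the genital tubercle, fell as well. It lay at 7.89, 7.57 and 6.32 CPM in Neg ESCs and at 2.53, 4.09 and 3.29 CPM in Neg EpiLCs, a fall of 1.13 ± 0.16 (adjusted p = 1.5e-05). In 3xKD it lay at 6.51, 6.58 and 6.73 CPM and at 3.97, 3.64 and 4.18 CPM, a log2 fold change of -0.75 ± 0.15 (adjusted p = 0.00077). Hoxd1, at the other end of the cluster, was not called between the states, at 2.75, 2.75 and 1.73 CPM in Neg ESCs and 2.03, 2.15 and 1.71 CPM in Neg EpiLCs.

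Hoxd3 and Hoxd4 share exons with each other and with the read-through gene Gm28230, and their values moved between libraries. Hoxd3 was at 0, 1.17 and 1.22 CPM in Neg ESCs, a group in which Gm28230 lay at 0.886 ± 1.05 CPM, and Hoxd4 was at 0, 0.671 and 0.316 CPM in Neg EpiLCs. The fall of Hoxd4 (log2 -2.01 ± 0.53 in Neg, adjusted p = 0.005, and -1.88 ± 0.45 in 3xKD, adjusted p = 0.0027) was lost in Neg with offsets for transcript length, with only the groups compared in the fit and without Neg ESC replicate 2 or 3 or Neg EpiLC replicate 3. In 3xKD it was lost with those offsets and without 3xKD ESC replicate 1 or 3xKD EpiLC replicate 2 or 3.

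In Hoxa and Hoxb some genes rose and others fell within 1 cluster. Hoxb9 fell from 4.34, 3.03 and 4.89 CPM in Neg ESCs to 0.801, 1.07 and 1.14 CPM in Neg EpiLCs (log2 -2.03 ± 0.26, adjusted p = 4.7e-06), and Hoxb13 fell from 1.35 ± 0.34 CPM to 0.235 ± 0.045 CPM. Hoxb8 was not called in any comparison, at 0.687 ± 0.023 CPM in Neg ESCs, 0.355 ± 0.043 CPM in 3xKD ESCs, 0.474 ± 0.275 CPM in Neg EpiLCs and 0.251 ± 0.124 CPM in 3xKD EpiLCs. Hoxa13 fell by 1.55 ± 0.41 in Neg, a call that was lost with offsets for transcript length, with only the groups compared in the fit and without Neg ESC replicate 1 or 2 or Neg EpiLC replicate 1 or 3. The sum of Hoxb lay at 12.3 ± 1.47 CPM in Neg ESCs and 15.6 ± 0.86 CPM in Neg EpiLCs, and at 9.23 ± 1.04 CPM and 9.83 ± 1.71 CPM in 3xKD. That of Hoxa lay at 30.4 ± 1.62 CPM and 43.2 ± 4.83 CPM in Neg and at 25.6 ± 1.31 CPM and 24.2 ± 0.65 CPM in 3xKD.

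The 5 members called lower in 3xKD and not in Neg were not alike in how firmly they passed. In 3xKD, Hoxb7 went from 1.17, 1.40 and 0.915 CPM in ESCs to 0.124, 0.256 and 0.2498 CPM in EpiLCs (log2 -2.43 ± 0.43, adjusted p = 0.00018), a call that held under every alternative. Hoxa9 fell by 1.27 ± 0.35 and Hoxa10 by 1.14 ± 0.27. Hoxa9 was lost by DESeq2, with offsets for transcript length and without any 1 of 5 libraries (3xKD ESC replicate 2 or 3, Neg EpiLC replicate 1, or 3xKD EpiLC replicate 2 or 3), and Hoxa7 by DESeq2 and without 3xKD ESC replicate 1 or 3 or 3xKD EpiLC replicate 1 or 2. Hoxa10 was lost with those offsets and without 3xKD EpiLC replicate 1. Of the members called in both lines, Hoxb13 in 3xKD was lost by DESeq2, with those offsets, with only the groups compared in the fit and without any single 3xKD ESC library or 3xKD EpiLC replicate 1 or 3, and Hoxa13 in 3xKD with those offsets and without 3xKD ESC replicate 1 or 3xKD EpiLC replicate 2.

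By paralog group, all 16 posterior genes (groups 9 to 13) had a fitted log2 fold change below 0 in both lines, with 11 called lower in Neg and 14 in 3xKD and none called higher. Of the 12 anterior genes (groups 1 to 4), 3 were called higher and 2 lower in each line. The posterior sum lay at 47.6 ± 1.86 CPM in ESCs and 13.5 ± 3.05 CPM in EpiLCs in Neg and at 46.6 ± 0.89 CPM and 13.9 ± 0.92 CPM in 3xKD, whereas the anterior sum lay at 34.5 ± 0.75 CPM and 38.4 ± 2.05 CPM in Neg and at 31.9 ± 2.11 CPM and 29.6 ± 2.03 CPM in 3xKD. Across the 39 genes the paralog number and the log2 fold change had a Spearman correlation of -0.57 in Neg and -0.56 in 3xKD, with -0.65 and -0.73 across the 11 Hoxa genes, -0.81 and -0.77 across the 10 Hoxb genes, 0.27 and -0.083 across the 9 Hoxc genes and -0.32 and -0.23 across the 9 Hoxd genes. These are descriptions, since genes of a cluster are not independent and the points share their libraries.

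**Figure D3:**
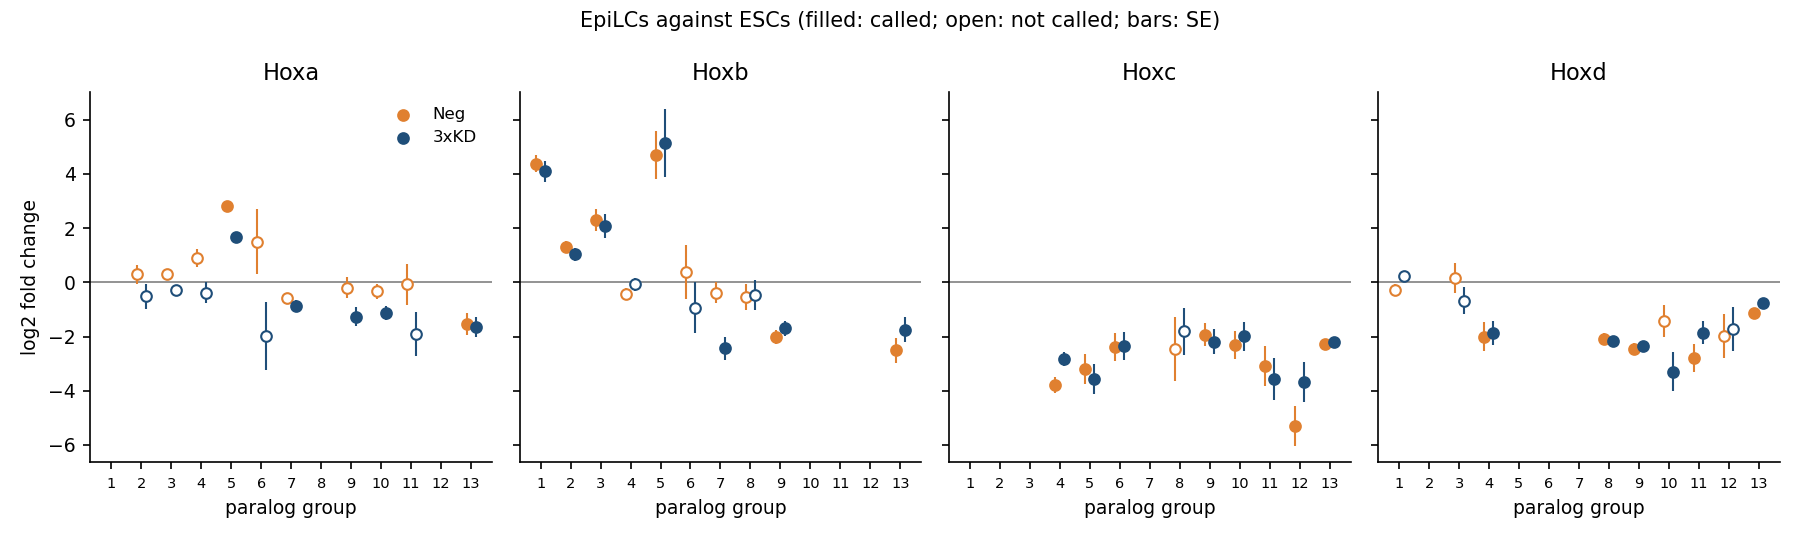
Log2 fold change of EpiLCs against ESCs (vertical axis) by paralog group (horizontal axis) in each cluster, for Neg and 3xKD, with SE as bars, filled points for called genes and open points for others. Hoxa5 and Hoxb1, Hoxb2, Hoxb3 and Hoxb5 lie above 0 in both lines, and every gene of groups 9 to 13 lies below 0, with 38 genes drawn.

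The comparison of 3xKD with Neg asks how the line with repressed Pcx, Me1 and Me2 differs from the scramble line. In EpiLCs 1 member was higher (Hoxd1) and 5 were lower (Hoxa2, Hoxa4, Hoxa5, Hoxa7 and Hoxb1), which is 2.56% and 12.8% of the members, where 7.88% and 5.35% of all genes were called. Of the 5 lower members, 4 lay in Hoxa, whose sum was 37.8, 47.1 and 44.8 CPM in Neg EpiLCs and 23.6, 24.0 and 24.9 CPM in 3xKD EpiLCs, a ratio of 0.560 with no overlap. The fitted log2 fold changes lay below 0 for 9 of 11 Hoxa genes and for 10 of 10 Hoxb genes (9 with scaling by library size alone) and above 0 for 7 of 9 Hoxd genes (8 with that scaling), and over all 25446 genes 12207 lay below 0. Without Neg EpiLC replicate 3 the count of lower members was 3, since Hoxa2 and Hoxa4 no longer passed.

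Hoxa5 had the smallest adjusted p of the members. From the values given above, its 3xKD EpiLC libraries (4.41 to 5.68 CPM) lay below its Neg EpiLC libraries (11.4 to 14.4 CPM), a fall of 1.37 ± 0.15 (adjusted p = 1.3e-06). In ESCs, where the gene was low, the lines overlapped and differed by -0.22 ± 0.21 (adjusted p = 0.52). Hoxb1 fell by 1.19 ± 0.23 in EpiLCs (adjusted p = 0.00043), a call that was lost with offsets for transcript length (adjusted p = 0.0106), and in ESCs both lines were under the detection limit.

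Hoxa7, a central Hox gene linked to self-renewal of blood progenitors, was lower with 3xKD in both states and was the only member called in ESCs. It lay at 7.62, 5.99 and 4.95 CPM in Neg ESCs and at 2.83, 2.50 and 3.136 CPM in 3xKD ESCs, a fall of 1.12 ± 0.19 (adjusted p = 0.00017). In EpiLCs it lay at 3.45, 4.16 and 4.61 CPM in Neg and at 1.43, 1.28 and 1.94 CPM in 3xKD, a fall of 1.39 ± 0.21 (adjusted p = 5.7e-05). The lines did not overlap in either state, and with offsets for transcript length the ESC call was lost (adjusted p = 0.0178). The antisense RNA Hoxaas3 overlaps an exon of Hoxa7 and lay at 0.254 to 0.588 CPM as a group mean.

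Hoxa2 and Hoxa4 were lower members with low counts. Hoxa2 lay at 0.924, 1.07 and 1.77 CPM in Neg EpiLCs and at 0.310, 0.192 and 0.4995 CPM in 3xKD EpiLCs, a fall of 1.88 ± 0.41 (adjusted p = 0.0014). Hoxa4 lay at 1.48, 1.34 and 1.71 CPM and at 0.496, 0.639 and 0.437 CPM, a fall of 1.51 ± 0.35 (adjusted p = 0.0022). The groups did not overlap for either gene, and the call of Hoxa4 was also lost without 3xKD EpiLC replicate 3. In ESCs Hoxa2 lay at 1.01 ± 0.27 CPM in Neg and 0.479 ± 0.062 CPM in 3xKD. That log2 fold change of -1.08 ± 0.40 missed the limit (adjusted p = 0.041), and the libraries did not overlap. Hoxa4 overlapped between the lines in ESCs (log2 -0.22 ± 0.36, adjusted p = 0.69).

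Hoxd1, the anterior end of Hoxd, was the member that rose. It lay at 2.03, 2.15 and 1.71 CPM in Neg EpiLCs and at 4.47, 4.22 and 4.43 CPM in 3xKD EpiLCs, a rise of 1.15 ± 0.19 (adjusted p = 0.00013). In ESCs it lay at 2.75, 2.75 and 1.73 CPM in Neg and at 3.75, 3.29 and 4.18 CPM in 3xKD, a log2 fold change of 0.66 ± 0.19 that missed the limit (adjusted p = 0.012). The groups did not overlap in either state.

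In ESCs 0 members were called higher and 1 lower (2.56%), where 8.50% and 6.76% of all genes were called. At an unadjusted p under 0.05, 4 were higher and 5 lower, and DESeq2 called 0 and 1. The shares of all genes at these 2 settings are not given here, so these counts cannot be set against them. Hoxa9 (0.941 ± 0.11 CPM in Neg and 2.02 ± 0.37 CPM in 3xKD, adjusted p = 0.017) passed under some other settings, such as without Neg EpiLC replicate 2 or 3, and Hoxd1 passed with filterByExpr as the filter on low counts and without Neg ESC replicate 2 or Neg EpiLC replicate 2. Hoxc12 lay at 1.99 ± 0.27 CPM in Neg ESCs and 0.901 ± 0.22 CPM in 3xKD ESCs (adjusted p = 0.061). The median log2 fold change of the 39 members was -0.07 in ESCs and -0.29 in EpiLCs, against 0.03 over all genes in each, and -0.06 in ESCs without Hoxb5.

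**Figure D4:**
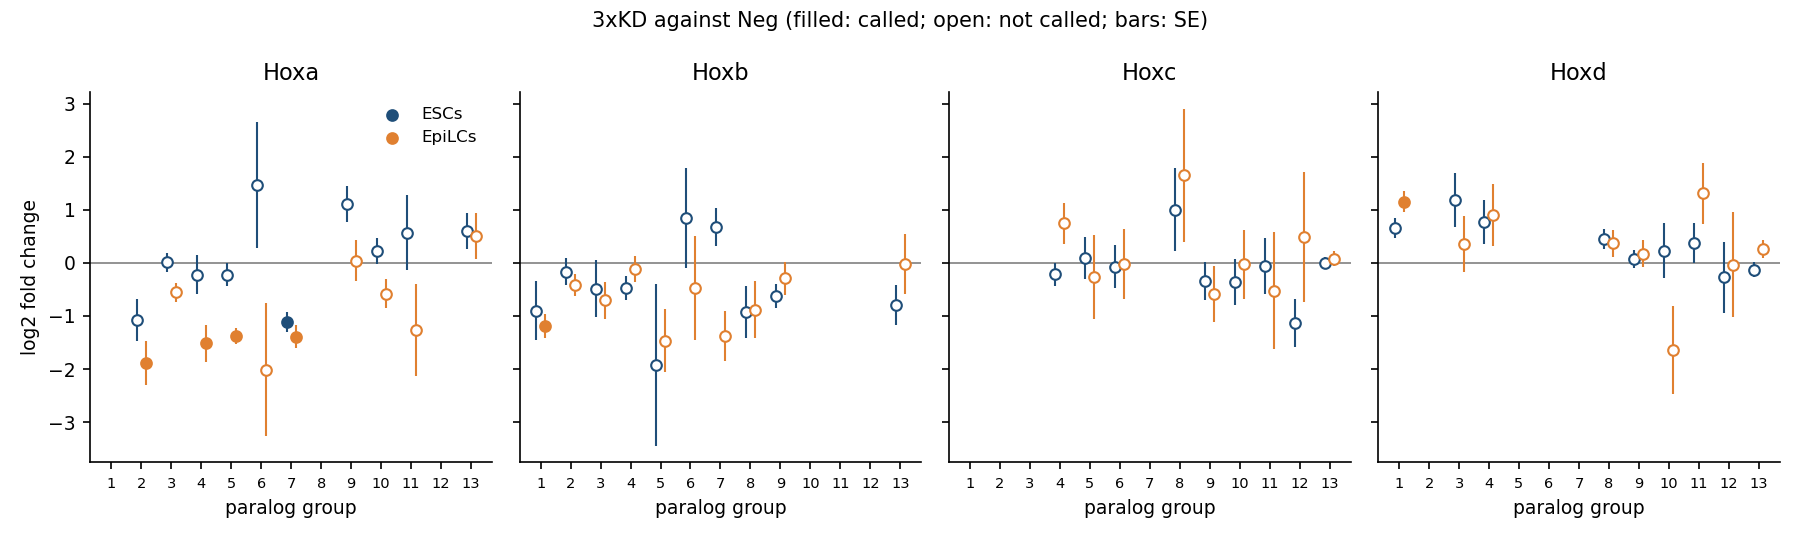
Log2 fold change of 3xKD against Neg (vertical axis) by paralog group (horizontal axis) in each cluster, for ESCs and EpiLCs, with SE as bars, filled points for called genes and open points for others. Filled points below 0 lie in Hoxa and at Hoxb1, and Hoxd1 in EpiLCs is the filled point above 0, with 38 genes drawn.

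The difference of the 3xKD effect between EpiLCs and ESCs was tested for each gene as an interaction term, with an adjusted p under 0.01 and no fold limit. It was called for 0 members in the higher direction and for 1, Hoxa5, in the lower direction, where 4.76% and 5.27% of all genes were called. For Hoxa5 the effect was more negative in EpiLCs than in ESCs by 1.15 ± 0.26 on the log2 scale (adjusted p = 0.0053). At an unadjusted p under 0.05, 1 member was higher and 5 lower, and DESeq2 called 0 and 1, again without the shares of all genes at these settings. The fitted difference lay below 0 for 11 of 11 Hoxa genes (median -0.81), 1 of which was called, for 5 of 10 Hoxb, 3 of 9 Hoxc and 3 of 9 Hoxd genes, and for 12748 of all 25446 genes. The Hoxa5 call was lost with offsets for transcript length and without Neg ESC replicate 2 or 3, 3xKD ESC replicate 1 or 3, Neg EpiLC replicate 2 or 3 or 3xKD EpiLC replicate 2, with adjusted p-values up to 0.0299. Without Neg EpiLC replicate 2, Hoxc4 was called higher (adjusted p = 0.00722).

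**Figure D5:**
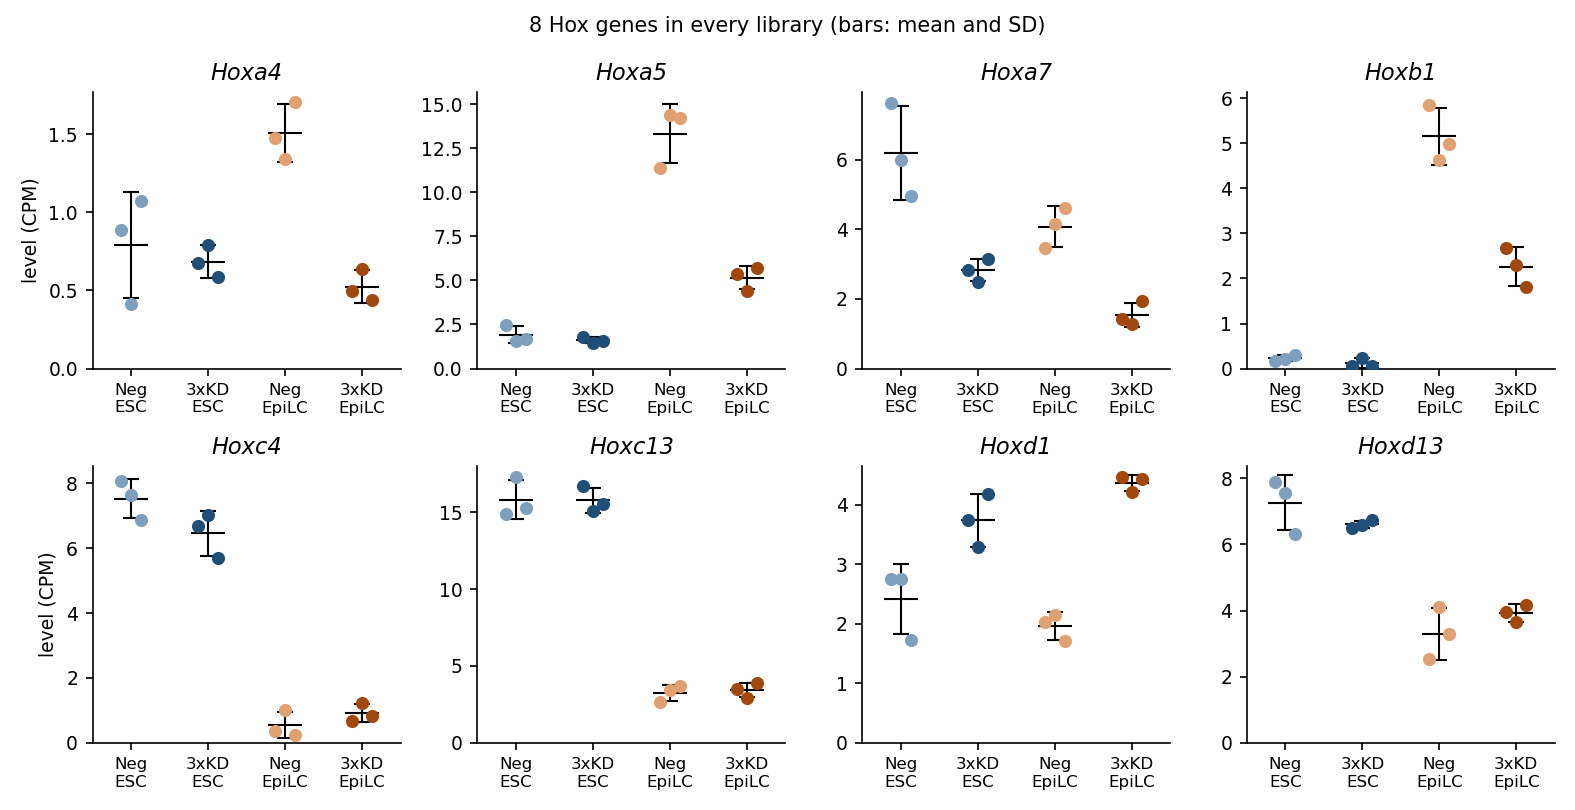
CPM of 8 Hox genes in every library (points), with the mean and SD of each group (bars). Hoxa4, Hoxa5 and Hoxb1 are highest in Neg EpiLCs, Hoxa7 is lower in 3xKD in both states, Hoxc4, Hoxc13 and Hoxd13 are lower in EpiLCs, and Hoxd1 is higher in 3xKD.

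The chromosomes that carry the clusters had medians near 0. Among the other genes there whose mean was 1 CPM or more, the median log2 fold change of 3xKD against Neg in EpiLCs was 0.01 on chromosome 6 (679 genes), 0.02 on chromosome 11 (1185 genes), 0.05 on chromosome 15 (563 genes) and -0.05 on chromosome 2 (1149 genes). For EpiLCs against ESCs in Neg the same medians lay between -0.04 and 0.04.

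Of 48 other annotated genes in or beside the clusters, listed together as non-coding, 21 had enough counts to be tested. Among those tested, Gm28230 is annotated as protein-coding and Gm11539 as a transcribed pseudogene. Halr1, a long non-coding RNA beside the Hoxa cluster and the one with the most counts (15184), lay at 27.5 ± 0.926 CPM in Neg ESCs, 14.1 ± 1.38 CPM in 3xKD ESCs, 195 ± 10.2 CPM in Neg EpiLCs and 85.5 ± 3.87 CPM in 3xKD EpiLCs. It rose in EpiLCs by 2.82 ± 0.06 in Neg and fell with 3xKD by 0.97 ± 0.07 in ESCs and by 1.19 ± 0.05 in EpiLCs (adjusted p = 4.5e-11). Gm53, which lies within Hoxb, fell in EpiLCs by 2.01 ± 0.10 in Neg and by 1.45 ± 0.10 in 3xKD. No other gene of the list was called, and Hotair had 4 counts in all and was not tested. Of the 15 protein-coding neighbours found outside the clusters, 2 rose (13.3%) and 3 fell (20%) in Neg EpiLCs against ESCs. Of all genes, 9.78% and 11.0% were called there. With 3xKD in ESCs 1 rose (Hibadh) and 1 fell (6.67% each), near the shares of all genes (8.50% and 6.76%). With 3xKD in EpiLCs 0 rose and 1 fell (6.67%), where 7.88% and 5.35% of all genes were called, the latter share near that of the neighbours. The neighbour that fell with 3xKD was Snx11 near Hoxb in both states, by 0.59 ± 0.06 in ESCs and 0.74 ± 0.06 in EpiLCs. Snx11 lay at 23.4 ± 0.865 CPM in Neg ESCs, 15.5 ± 0.283 CPM in 3xKD ESCs, 48.2 ± 3.33 CPM in Neg EpiLCs and 28.9 ± 0.916 CPM in 3xKD EpiLCs. Calcoco2, near the other end of Hoxb, fell by 4.26 ± 0.10 in Neg EpiLCs.

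Genes of the pathways that act on Hox clusters were counted as lists. Between the states, 9.78% of all genes were called higher and 11.0% lower in Neg, and 9.42% and 9.32% in 3xKD. With 3xKD these shares were 8.50% and 6.76% in ESCs and 7.88% and 5.35% in EpiLCs. Of 20 retinoic acid genes, 8 were higher (40%) and 2 lower (10%) in Neg EpiLCs against ESCs, the latter a share near that of all genes, and 5 and 5 (25% each) in 3xKD. With 3xKD, ESCs had 6 that rose (30%) and 1 that fell (5%), the latter near the share of all genes, and EpiLCs 5 (25%) and 4 (20%). Crabp2, a carrier of retinoic acid, rose from 0.931 ± 0.208 CPM in ESCs to 7.68 ± 1.43 CPM in EpiLCs in Neg and lay at 1.97 ± 0.411 CPM and 2.39 ± 0.306 CPM in 3xKD, and its 3xKD effect was lower in EpiLCs by 2.72 ± 0.32 (adjusted p = 1.5e-05). The receptor gene Rarg rose by 2.08 ± 0.04 in Neg and 1.86 ± 0.04 in 3xKD.

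Among the 6 Cdx and ParaHox genes none rose in EpiLCs, and 3 fell in Neg and 2 in 3xKD. Cdx1 went from 13.4 ± 1.87 CPM in Neg ESCs to 0.278 ± 0.098 CPM in Neg EpiLCs (log2 -5.57 ± 0.23) and fell by 5.06 ± 0.19 in 3xKD. Cdx2 fell in Neg EpiLCs (log2 -3.141 ± 0.380). With 3xKD in ESCs 1 of the 6 rose and 2 fell. Cdx1 rose there from 13.4 ± 1.87 CPM to 21.8 ± 0.563 CPM (log2 0.69 ± 0.13, adjusted p = 0.00025). Cdx2 fell from 2.86 ± 0.313 CPM to 0.502 ± 0.081 CPM, and the other that fell was Cdx4, under 1 CPM in every group and named after its values were seen to complete the count.

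Of the 9 TALE cofactor genes, 2 rose and 3 fell in EpiLCs in each line. Meis2 was lower with 3xKD in both states, at 54.8 ± 2.80 CPM in Neg and 10.4 ± 0.462 CPM in 3xKD ESCs and at 25.1 ± 1.47 CPM and 5.93 ± 0.988 CPM in EpiLCs. Meis2 also fell in EpiLCs against ESCs, by 1.13 ± 0.08 on the log2 scale in Neg and by 0.81 ± 0.10 in 3xKD.

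Of 34 Polycomb genes, 4 rose (11.8%) and 6 fell (17.6%) in Neg EpiLCs, and 3 (8.82%) and 6 in 3xKD, where the shares that rose were near those of all genes given above. Jarid2, a partner of the Polycomb repressive complex that methylates histone H3, rose by 1.15 ± 0.03 in Neg and by 1.46 ± 0.03 in 3xKD. Phc1 rose by 1.91 ± 0.03 and 1.73 ± 0.03, and Epop fell by 1.42 ± 0.04 in Neg, from 286 ± 4.23 CPM to 106 ± 4.84 CPM. With 3xKD in ESCs 3 rose and 3 fell (8.82% each), near the shares of all genes (8.50% and 6.76%). Phf19 rose there by 1.54 ± 0.14, the largest change of the list, and Epop fell by 1.15 ± 0.04. With 3xKD in EpiLCs 0 rose and 3 fell (Cbx8, Bcor and Rybp, 8.82%), where 7.88% and 5.35% of all genes were called. Of 18 Trithorax genes found, 4 rose (22.2%) and 2 fell (11.1%) in Neg EpiLCs, the latter a share near that of all genes. With 3xKD in ESCs Kdm6b rose (0.70 ± 0.04) and Setd1b fell (-0.91 ± 0.05), 5.56% each, near the shares of all genes. With 3xKD in EpiLCs Kmt2a (-0.60 ± 0.04) and Setd1b (-0.89 ± 0.05) fell (11.1%) and none rose. The difference of the 3xKD effect between EpiLCs and ESCs was called lower for 5 of the 18 (27.8%) and higher for 0. Of all genes, 5.27% and 4.76% were called there, and Kdm6b had the largest difference of the list (-1.24 ± 0.06). Of 42 other developmental regulators, such as homeobox, T-box and forkhead genes, 4 rose (9.52%) and 11 fell (26.2%) in Neg EpiLCs and 3 and 13 in 3xKD, with Tbx3 going from 511 ± 8.71 CPM to 26.2 ± 0.311 CPM in Neg. With 3xKD, ESCs had 7 that rose (16.7%) and 3 that fell (7.14%), the latter a share near that of all genes. EpiLCs had 0 that rose and 4 that fell (9.52%), among them Foxd3 (-2.41 ± 0.07).

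Markers of other cell types were summed beside these values. In 3xKD EpiLCs the 5 neural markers lay at 54.6 to 57.1 CPM, against 119 to 123 CPM in Neg EpiLCs, and the formative markers were lower as given above, and their part in the Hox differences was not tested. The 10 fibroblast markers summed to 10.8 to 13.9 CPM in Neg ESCs, 31.7 to 32.7 CPM in 3xKD ESCs, 7.08 to 8.79 CPM in Neg EpiLCs and 14.2 to 17.6 CPM in 3xKD EpiLCs, of which Pdgfrb made up 7.16, 23.7, 2.90 and 8.62 CPM as group means, and 6 or 7 of the 10 were under 0.5 CPM in each group. In the same order of groups, Thy1 had means of 3.66, 6.57, 2.29 and 3.90 CPM and Col1a1 of 0.814, 1.46, 1.24 and 2.09 CPM, and the means of both were higher in 3xKD than in Neg in each state. Col3a1, Lum and Postn had group means of 0.084 CPM or less, and Lum and Postn were at 0 in both 3xKD groups. The part of these genes in the Hox differences was not tested. The 7 gastrulation mesoderm markers summed to 21.7 to 31.5 CPM over all libraries, with group means of T of 0.555 CPM or less. Most of that sum was Eomes, with group means of 23.6 and 25.9 CPM in Neg and 3xKD ESCs and 19.4 and 20.5 CPM in Neg and 3xKD EpiLCs. Of the 7 markers, 3 or 4 were under 0.5 CPM in each group. The 6 trophoblast markers summed to 47.8 to 50.5 CPM in Neg ESCs, 56.5 to 66.5 CPM in 3xKD ESCs, 10 to 12.2 CPM in Neg EpiLCs and 25.3 to 26.4 CPM in 3xKD EpiLCs. In that order, group means of Tfap2c were 38.8, 47.1, 3.80 and 8.82 CPM, and those of Krt8 were 5.79, 10.4, 5.30 and 14.3 CPM. Those of Cdx2 were 2.86, 0.502, 0.314 and 0.481 CPM, and those of Gata3 were 1.065, 1.312, 0.595 and 0.189 CPM. Those of Hand1 were 0.445, 0.602, 0.994 and 1.92 CPM, and those of Elf5 were 0.0865 CPM or less. The 6 primitive endoderm markers lay between 21.1 and 32.2 CPM in every library.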

How the data were processed

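Bulk RNA-seq of 12 libraries was analysed. Single-end reads were trimmed by the authors (Trim Galore 0.6.7), mapped to GRCm39 (STAR 2.7.9a) and quantified by transcript (Salmon 1.10.1). The deposited estimated counts per transcript are not normalized, and the deposited TPM are relative to transcript length and to the total of a library. The authors obtained gene counts with tximport and tested them with DESeq2.

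Gene values here are rounded sums of those estimated counts, which leaves out the length offsets of tximport (an alternative), and TPM were summed per gene for comparisons between genes. Library totals lay between 11221023 and 19652197, so that 0.5 CPM is a few counts. The 25446 genes with at least 10 counts were fitted with edgeR 4.0.16 (R 4.3.3, TMM, quasi-likelihood) in a single model of all 12 libraries, with Benjamini-Hochberg adjustment over all genes. Standard errors are the log2 fold change divided by the square root of F. Intervals of count ratios are exact and cover counting error only. The fit was tested on simulated data. Cluster sums were not tested. No 2 libraries of a group agreed within counting error, with chi-square values of 2.84 to 16.4 per degree of freedom.

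The members and gene lists were chosen with earlier results of these data known. Named genes were every member with a group mean of at least 0.5 CPM or a call, with low members given as ranges, and of other lists at most the 5 largest called changes with a mean of at least 1 CPM. Alternatives were DESeq2 1.42.0, RLE factors, library size alone, filterByExpr, no filter, length offsets, a replicate block, only the groups compared, an adjusted p under 0.05, other detection limits and each library left out. Exon overlaps and coordinates come from GENCODE vM39 on GRCm39. Some items are not reported here.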

Additional observations from a re-analysis of the deposited data

Results flagged for a closer look

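One result differed between the states. The 3xKD effect on Hoxa5 was lower in EpiLCs than in ESCs by a difference of -1.15 on the log2 scale in the test of the interaction term (edgeR, adjusted p = 0.0053). The effect was -0.22 in ESCs, where the gene lay at 1.46 to 2.48 CPM in the 6 libraries, and -1.37 in EpiLCs, where Neg lay at 11.4 to 14.4 CPM and 3xKD at 4.41 to 5.68 CPM. Under the alternatives the difference lay between -1.34 and -1.04, with adjusted p-values from 0.000572 to 0.0299.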

How the results depend on the processing

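Of 55 calls of a member in a comparison, 32 held under every alternative run, 23 were lost under at least 1, and none reversed direction under any. Transcript-length offsets gave 0 in place of 1 lower member for 3xKD in ESCs, 3 in place of 5 higher members for EpiLCs against ESCs in 3xKD, and 0 in place of 1 for the difference between states. Of the lower members of EpiLCs against ESCs in 3xKD, those offsets lost Hoxa9, Hoxa10, Hoxa13, Hoxb13, Hoxc10, Hoxd4 and Hoxd11. In Neg they lost Hoxa13, Hoxc5 and Hoxd4. DESeq2 called 14 lower members in Neg in place of 16, and 16 in 3xKD in place of 21. Other changes of a count by 1.5 times or less are not listed here. For 3xKD in ESCs, filterByExpr gave 1 higher member (Hoxd1), no filter 2 (Hoxa9 and Hoxd3), and only the groups compared 1 higher (Hoxa9) and 2 lower (Hoxa7 and Hoxc12). An adjusted p under 0.05 with no fold limit gave 2 higher and 4 lower members for 3xKD in ESCs, 8 lower in EpiLCs and 2 lower for the difference. Leaving out 1 library gave 0 to 2 higher members for 3xKD in ESCs, 1 to 2 higher and 3 to 5 lower in EpiLCs, and 0 to 1 in each direction for the difference. At a mean of 1 CPM, 14 members were detected in 3xKD EpiLCs in place of 22. The cause of these changes was not tested, and the shares of all genes under these settings are not given here. Library size alone and RLE factors in place of TMM changed no count of calls. Same-numbered libraries had correlations of -0.135 to 0.0999 over 15032 genes, and 3 of 12 libraries correlated best with their own number. No pairing by number was seen, which does not show that the samples were prepared without one. The fit with the replicate block gave 0 and 1, 1 and 5, 5 and 16, 5 and 21, and 0 and 1 higher and lower members, the counts of the fit without it. Members of under 1 CPM rest on a few counts per library.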
